A study of Homo sapiens with 6 samples.

Results

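The interferon-stimulated genes described here are 35 genes that cells switch on when they sense interferon, out of 32192 genes in a count table from A549 cells that did or did not overexpress APEX1. They were taken by gene symbol from a list of interferon-stimulated genes without the IFIT family, a rule that uses no measured value. The list itself was chosen with earlier results of these data known. All 35 were found in the count table and in the FPKM table (31951 genes), whose values are read counts scaled for gene length and library size. After removal of genes with low counts, 34 of the 35 remained among 16971 genes tested, and IRF9 did not. They fall into 7 sets by role. There are 7 RNA sensors and 2-5A synthetases, 3 transcription factors, 4 genes of the ISG15 system, 3 genes of the PARP and DTX3L set, 11 antiviral effectors, 5 genes with IFI names and 2 chemokines.

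Interferons bind receptors at the cell surface, and the JAK kinases behind these receptors phosphorylate transcription factors such as STAT2. STAT2 enters the nucleus in a complex with IRF9, which binds the interferon-stimulated response element (ISRE) in the promoters of its target genes. The proteins made from these genes detect viral RNA, block viral replication and attract immune cells, and several of them, such as IRF7 and the RNA sensors, feed back on the production of interferon.

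The A549 line is an established line of human lung adenocarcinoma cells. Polyadenylated RNA was sequenced from 3 libraries of cells transfected with a pIRES-hrGFP-1a plasmid that carries APEX1 (APEX1-OE) and from 3 libraries of cells that received the control plasmid (Ctrl), with no interferon or other agent named in either group. APEX1 is a DNA repair endonuclease that also acts as a redox regulator of transcription factors, and the study asked whether it acts on the growth and death of lung cancer cells through alternative splicing. Transfection was transient, in 1 cell line, all 6 libraries come from cells that received a plasmid, the share of cells that took it up was not given in the sources used here, and the methods speak of repeated experiments without saying whether the RNA libraries came from separate cultures, so p values measure the spread between these libraries, which may be technical.

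The libraries held between 28131955 and 41009197 counts. APEX1 itself stood at 1272, 1185 and 1300 CPM in APEX1-OE 1, 2 and 3 and 244, 243 and 214 CPM in Ctrl 1, 2 and 3, a log2 fold change of 2.42 (adjusted p = 0.00809, edgeR quasi-likelihood test with Benjamini-Hochberg adjustment over all genes tested), so that the labels and the overexpressed gene go together. CPM here are TMM-normalized read counts, scaled for library size and composition. Of the A549 epithelial markers, KRT7, KRT8, KRT18, ALDH1A1, AKR1B10 and AKR1C1 were high, EPCAM was at most 0.52 FPKM and CDH1 between 4.52 and 10.7 FPKM. Of 6 leukocyte markers 4 were in the FPKM table, with summed levels of 3.11 to 4.56 FPKM in APEX1-OE and 3.85 to 4.95 in Ctrl. Most of that sum was CD14, and PTPRC had at most 1 count in a library. All 3 endothelial markers stayed at or under 0.03 FPKM, 3 of 4 fibroblast markers were in the table at 0.73 FPKM or less, and none of the 3 plasmacytoid dendritic cell markers was in it. The libraries also stood apart across the groups. On principal component 1 of log2 CPM over all genes, which held 72.6% of the variance, APEX1-OE 1, Ctrl 1 and Ctrl 2 lay on one side (side A) and APEX1-OE 2, APEX1-OE 3 and Ctrl 3 on the other (side B). The log2 fold changes below therefore come from the comparison of all 6 libraries by condition alone and again with the library side as a term. The sides were read from these same data, and what made them was not tested. In RNA from a whole culture, a change in the share of responding cells and a change in RNA per cell cannot be told apart.

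The interferon-stimulated genes covered a wide range of levels in these cells, none of which is labelled as treated with interferon. Mean FPKM reached at least 1000 for 2 genes, lay between 100 and 1000 for 7, between 10 and 100 for 15, between 1 and 10 for 9, and under 1 for 2, CXCL11 and IRF9. IFI6, a mitochondrial and endoplasmic reticulum protein that restrains apoptosis and flavivirus replication, was the highest, at 2502 ± 412 FPKM in APEX1-OE and 2632 ± 548.6 FPKM in Ctrl (SD, n = 3). It ranked 15 among all genes by mean FPKM. ISG15, a ubiquitin-like protein that is attached to other proteins, ranked 31 with 1707 ± 615 FPKM in APEX1-OE and 1608 ± 423 FPKM in Ctrl (SD, n = 3). Together IFI6 and ISG15 made up between 64.9% and 72.3% of the summed FPKM of the 35 genes, and the 35 genes made up between 1.36% (Ctrl 3) and 1.91% (APEX1-OE 1) of all FPKM. The next levels were IFI27 at a mean of 436 FPKM over the 6 libraries, IFI35 at 228.7, IFITM1 at 185, MX1 at 172.5, OASL at 145, OAS1 at 111 and IRF7 at 101 FPKM. Neighbours in this order often overlapped. The FPKM of MX1 (161 to 190.1) lay within that of IFITM1 (145 to 213), and the FPKM of OAS1 (105 to 115) within that of IRF7 (72.7 to 144), whereas the lowest value of IFI27 (330.4) was above the highest of IFI35 (283). Apart from IRF9, the low end held the chemokines CXCL10 (1.05 to 2.04 FPKM) and CXCL11 (0.300 to 0.980 FPKM).

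**Figure D1:**
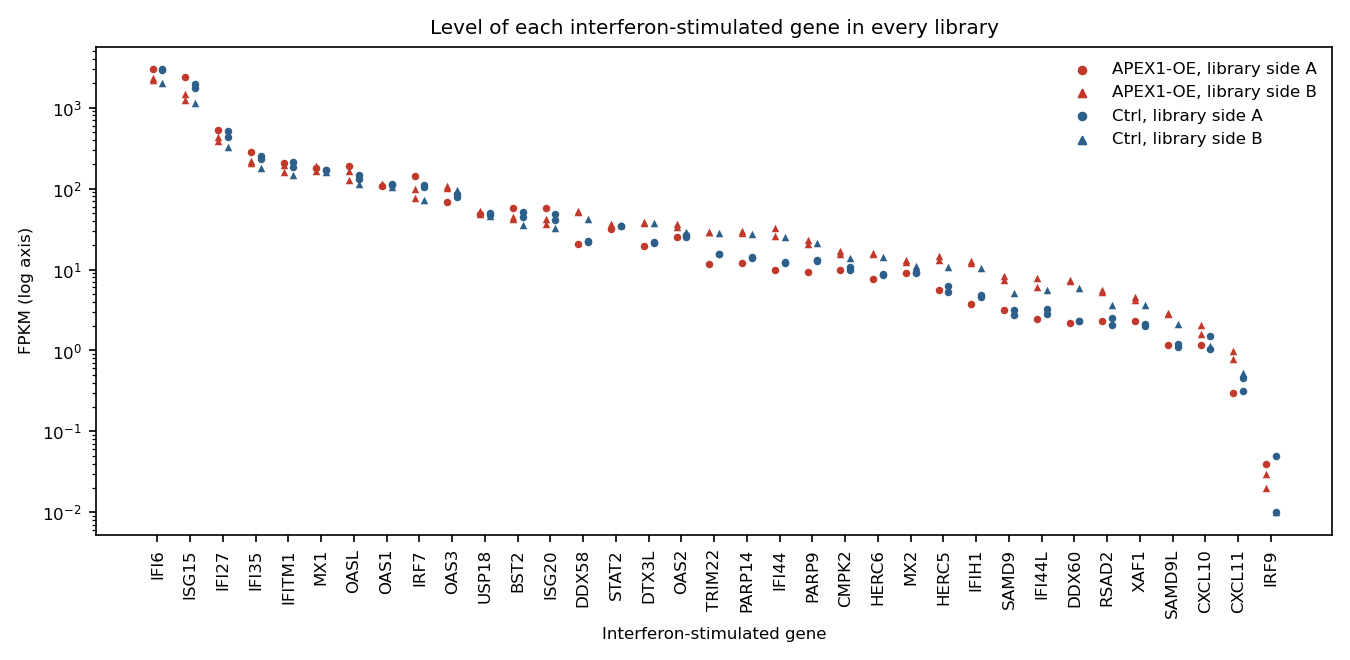
FPKM (log axis) of the 35 interferon-stimulated genes, ordered by their mean, with one point for each library (red APEX1-OE, blue Ctrl, circles library side A, triangles side B). IFI6 and ISG15 lie above 1000 FPKM in every library, and for most of the lower genes the triangles of both groups lie above the circles.

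IRF9, the DNA-binding subunit of its complex with STAT2, was listed with 1 to 4 counts and 0.01 to 0.05 FPKM in each library. In GENCODE release 44 on GRCh38 its exons share 1544 bases with ENSG00000259529, a protein-coding gene of the same strand that held between 4106 and 5856 counts. How reads on both genes were assigned was not given in the sources used here, the part of this overlap in the count of IRF9 was not tested, and its count is not read as its level. Exons of RSAD2 and CMPK2 (351 bases), of PARP9 and DTX3L (139 bases) and of XAF1 and the antisense gene PRAL (2535 bases) overlap on opposite strands. The libraries were made with a stranded kit, and the use of strand in counting was not given in the sources used here. IFITM1 has close paralogs in IFITM2 and IFITM3, so that its count of uniquely mapped reads is uncertain.

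Promoter sequence was not read when the genes were taken by symbol. Since the ISRE is an element through which such genes respond to interferon, a high share of matches is not independent of what the list is. Windows of 250 bases before the start sites were read from RefSeq (GRCh38.p14) for 29 of the 35 genes, DDX58 under its current symbol RIGI. OAS2, OASL, IRF7, USP18, MX2 and TRIM22 were not matched. The core letters of the ISRE, GAAANNGAAA on either strand with overlapping matches counted, were found in 18 of the 29 (62.1%), against 3.71% of the 27305 genes with a window. The letters of the gamma-activated site, TTCNNNGAA, which read the same on both strands and may overlap an ISRE match, were found in 10 of the 29 (34.5%), against 8.09% of all genes. A match is a run of letters and not a measured binding site. The ISRE matches of 6 genes on which the values below turn are shown 5′ to 3′ along the strand of the gene, with 10 bases on either side and the matching letters in capitals. They are the 3 genes of highest level, IFI6, ISG15 and IFI27, and 3 genes among the 5 largest differences between the conditions. CXCL11 and SAMD9L, also among these 5, had a window without an ISRE match.
IFI6, chr1:27672266-27672358, minus strand: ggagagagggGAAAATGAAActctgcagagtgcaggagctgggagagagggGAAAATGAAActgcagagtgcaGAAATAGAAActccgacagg
ISG15, chr1:1013374-1013409, plus strand: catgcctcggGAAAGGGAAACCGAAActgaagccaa
IFI27, chr14:94110618-94110660, plus strand: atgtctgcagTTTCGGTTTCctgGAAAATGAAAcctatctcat
SAMD9, chr7:93118096-93118125, minus strand: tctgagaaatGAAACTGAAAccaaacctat
RSAD2, chr2:6877622-6877651, plus strand: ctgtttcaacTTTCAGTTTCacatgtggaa
DDX60, chr4:168318786-168318850, minus strand: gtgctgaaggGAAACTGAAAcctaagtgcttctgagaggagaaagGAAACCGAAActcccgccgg
IFI6 held 3 matches between 156 and 93 bases before its start; the first and second have the same letters. In ISG15 the 2 matches overlap, at 113 and 107 bases before the start. IFI27 held 1 match in each orientation, DDX60 held 2, and SAMD9 and RSAD2 held 1 each. RSAD2 has a further RefSeq start without a match, and the match shown precedes its downstream start.

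With the condition as the only term, no interferon-stimulated gene passed the test. In the edgeR quasi-likelihood test with Benjamini-Hochberg adjustment over 16971 genes, 0 of the 34 tested genes had an adjusted p under 0.05, where 0.00589% of all genes did (1 gene, APEX1). By condition alone in all 6 libraries none of the 34 had an unadjusted p under 0.05 either, where 0.695% of all genes did, and DESeq2 gave 0 at the adjusted (0.00589% of all genes) and 2 at the unadjusted threshold (RSAD2 and SAMD9, against 0.625% of all genes). The log2 fold changes ran from -0.08 in IFI6 to 0.73 in SAMD9 with standard errors of 0.169 to 0.481. For 26 of the 34 the difference of the group means was smaller than the pooled standard deviation of the libraries. With 3 libraries against 3, an exact permutation test of a single gene cannot give a p under 0.1.

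Most of the genes nevertheless leaned the same way. The log2 fold change was above 0 for 32 of the 34, against 57.5% of all genes, with a median of 0.22 against 0.03 over all genes. The genes were not independent of each other, and this is a count and not a test. STAT2 and IFI6 were the only 2 below 0. Without APEX1-OE 1 the number above 0 was 22 and the median 0.39, and without Ctrl 3 they were 23 and 0.30. The highest CPM of a gene lay in an APEX1-OE library for 33 of the 34, where this held for 71.7% of all genes, and the exception was STAT2, highest in Ctrl 2. APEX1-OE 1 held 12 of these highest values, APEX1-OE 2 held 10 and APEX1-OE 3 held 11. The lowest CPM lay in a Ctrl library for 25 genes and in APEX1-OE for 9, of which 8 were in APEX1-OE 1, and it lay in a Ctrl library for 36.2% of all genes. In only 1 gene, OAS2, did all 3 APEX1-OE libraries lie above all 3 Ctrl libraries in CPM, where this held for 1.38% of all genes, and in FPKM no gene of the list showed it (1.53% of all genes). The reverse, all APEX1-OE libraries below all Ctrl libraries in CPM, was seen in 0 genes of the list and in 2.01% of all genes.

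Among the RNA sensors, DDX58 (RIG-I) and IFIH1 (MDA5) recognize double-stranded RNA in the cytosol, and DDX60 is a related helicase. DDX60 stood at 18.3, 51.3 and 51.1 CPM in APEX1-OE 1, 2 and 3 and 17.8, 18.3 and 42.0 CPM in Ctrl 1, 2 and 3. Both APEX1-OE libraries of side B were near 51 and Ctrl 3 was at 42.0, while the 3 libraries of side A were at about 18, so that the groups overlapped. The log2 fold change of 0.63 (standard error 0.481) became 0.16 (0.106) with the library side as a term. DDX58 ranged from 20.6 to 52.9 FPKM and IFIH1 from 3.71 to 12.8 FPKM, with log2 fold changes of 0.51 and 0.48 by condition alone and of 0.17 and 0.02 with the side.

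The OAS proteins make 2-5A, the messenger that activates RNase L, and OASL is a related protein without that activity. OAS1, OAS3 and OAS2 lie side by side on chromosome 12 and were at mean levels of 111, 88.8 and 29.4 FPKM. OAS2 stood at 218, 267 and 238 CPM in APEX1-OE 1, 2 and 3 and 211, 200.0 and 211 CPM in Ctrl 1, 2 and 3. The APEX1-OE libraries were all above the Ctrl libraries, by as little as the gap between 218 and 211 CPM, and the log2 fold change was 0.22 (95% interval -0.18 to 0.61) by condition alone and 0.17 (-0.02 to 0.37) with the side. For OAS1 and OAS3 it was 0.02 and 0.07 by condition alone and 0.09 and -0.0105 with the side. OASL stood at 844, 622 and 467 CPM in APEX1-OE 1, 2 and 3 and 616, 549.3 and 429.9 CPM in Ctrl 1, 2 and 3. Within each side APEX1-OE was above Ctrl, and across the sides the groups overlapped, APEX1-OE 3 being below Ctrl 1 and Ctrl 2. Its log2 fold change was 0.28 (95% interval -0.32 to 0.87) by condition alone and 0.44 (0.20 to 0.67) with the side, where its adjusted p was 0.316 in edgeR's quasi-likelihood test. By condition alone all 7 genes of this set had a log2 fold change above 0, with a median of 0.28, while with the side that of OAS3 was below 0. That of OAS1 was below 0 without APEX1-OE 1 or Ctrl 3, and that of OAS3 without APEX1-OE 2.

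Of the transcription factors, STAT2, the partner of IRF9, varied little, at 32.0 to 36.0 FPKM and a log2 fold change of -0.03 (95% interval -0.41 to 0.36) by condition alone and 0.0130 (-0.17 to 0.20) with the side. IRF7, the factor that drives interferon production after a first wave of signaling, stood at 426, 244 and 183 CPM in APEX1-OE 1, 2 and 3 and 299, 289 and 179.7 CPM in Ctrl 1, 2 and 3. APEX1-OE 1 was the highest library and APEX1-OE 3 was close to Ctrl 3. Its log2 fold change was 0.15 (standard error 0.343) by condition alone and 0.39 (standard error 0.111) with the side.

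In the ISG15 system, HERC5 is the ligase that attaches ISG15 to other proteins, HERC6 is its close relative, and USP18 removes ISG15 and restrains the interferon receptor. ISG15 stood at 3124, 1628 and 1321 CPM in APEX1-OE 1, 2 and 3 and 2317, 2122 and 1233 CPM in Ctrl 1, 2 and 3. APEX1-OE 1 was the highest library, and APEX1-OE 2 and 3 were below Ctrl 1 and Ctrl 2 and above Ctrl 3. The log2 fold change of 0.10 (95% interval -0.75 to 0.95) by condition alone became 0.38 (0.17 to 0.58) with the side, with an adjusted p of 0.316 in edgeR's quasi-likelihood test. HERC5 and HERC6 had log2 fold changes of 0.52 and 0.30 by condition alone and 0.20 and 0.06 with the side. USP18 ranged from 46.1 to 53.1 FPKM, with a log2 fold change of 0.05 by condition alone and 0.12 with the side.

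PARP9 and DTX3L form a complex of an ADP-ribosyltransferase family member and a ubiquitin ligase, and PARP14 is a further ADP-ribosyltransferase encoded nearby on chromosome 3. PARP9 ranged from 9.22 to 23.2 FPKM, DTX3L from 19.7 to 39.0 FPKM and PARP14 from 12.1 to 29.8 FPKM. Their log2 fold changes of 0.13, 0.23 and 0.32 were above 0 by condition alone. With the side as a term that of PARP9 was -0.17 (95% interval -0.39 to 0.05) and the other 2 were at 0.00 after rounding, with intervals of -0.18 to 0.18 and -0.19 to 0.19.

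The 11 antiviral effectors include SAMD9 and RSAD2, the genes with the largest log2 fold changes of the list by condition alone. SAMD9 and SAMD9L, neighbours on chromosome 7, encode large cytosolic proteins that restrict poxvirus replication. SAMD9 stood at 29.5, 59.3 and 65.4 CPM in APEX1-OE 1, 2 and 3 and 24.0, 28.2 and 40.4 CPM in Ctrl 1, 2 and 3. APEX1-OE 2 and 3 were the highest libraries and Ctrl 3 was above APEX1-OE 1, so that the groups overlapped. The mean was 51.4 ± 19.2 CPM in the 3 APEX1-OE libraries (SD) and 30.9 ± 8.53 CPM in the 3 Ctrl libraries (SD), a log2 fold change of 0.73 (95% interval -0.06 to 1.53) by condition alone and 0.41 (0.14 to 0.67) with the side. SAMD9L stood at 11.6, 24.4 and 23.0 CPM in APEX1-OE 1, 2 and 3 and 10.9, 10.2 and 17.6 CPM in Ctrl 1, 2 and 3. It followed the order of SAMD9 in that APEX1-OE 2 and 3 were highest and Ctrl 3 came next, and its log2 fold change was 0.61 by condition alone and 0.30 with the side.

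RSAD2 (viperin), which makes a nucleotide that terminates viral RNA chains, stood at 11.2, 23.1 and 21.0 CPM in APEX1-OE 1, 2 and 3 and 11.4, 9.35 and 14.6 CPM in Ctrl 1, 2 and 3. The values of APEX1-OE 2 and 3 were above all others, and APEX1-OE 1 lay between Ctrl 1 and Ctrl 2. The mean was 18.4 ± 6.36 CPM in the 3 APEX1-OE libraries (SD) and 11.8 ± 2.67 CPM in the 3 Ctrl libraries (SD), a log2 fold change of 0.64 (95% interval -0.11 to 1.40) by condition alone and 0.37 (0.06 to 0.67) with the side. CMPK2, a nucleotide kinase encoded head to head with RSAD2, had a log2 fold change of 0.27 by condition alone and 0.14 with the side. XAF1, a pro-apoptotic antagonist of XIAP, stood at 11.4, 18.0 and 18.6 CPM in APEX1-OE 1, 2 and 3 and 9.34, 9.81 and 15.1 CPM in Ctrl 1, 2 and 3. APEX1-OE was above Ctrl within each side, while Ctrl 3 was above APEX1-OE 1. Its log2 fold change was 0.49 by condition alone and 0.27 with the side.

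ISG20 is an exonuclease that degrades RNA, BST2 (tetherin) holds budding virions at the cell surface, and IFITM1 blocks the entry of enveloped viruses. ISG20 stood at 171, 106 and 88.9 CPM in APEX1-OE 1, 2 and 3 and 132, 113 and 80.6 CPM in Ctrl 1, 2 and 3. BST2 stood at 79.9, 49.5 and 51.1 CPM in APEX1-OE 1, 2 and 3 and 66.4, 58.4 and 41.9 CPM in Ctrl 1, 2 and 3. IFITM1 stood at 299.9, 193 and 231 CPM in APEX1-OE 1, 2 and 3 and 280.5, 249.9 and 174 CPM in Ctrl 1, 2 and 3. In all 3 genes the highest library was APEX1-OE 1, the lowest was Ctrl 3, and Ctrl 1 was above APEX1-OE 2 and 3. Their log2 fold changes by condition alone were 0.17, 0.11 and 0.04, and with the side they were 0.38, 0.31 and 0.23. The GTPases MX1 and MX2, which trap viral nucleocapsids, differed in level, at 161 to 190.1 and 9.04 to 13.2 FPKM, and had log2 fold changes of 0.09 and 0.21 by condition alone and 0.17 and 0.14 with the side. TRIM22, a ubiquitin ligase, had a log2 fold change of 0.21 by condition alone and -0.12 with the side (95% interval -0.33 to 0.10).

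The IFI genes ranged from the highest level of the list, in IFI6, to under 10 FPKM in IFI44L. IFI6 stood at 3545, 2219 and 2291 CPM in APEX1-OE 1, 2 and 3 and 3270, 3244 and 1998 CPM in Ctrl 1, 2 and 3. APEX1-OE 1, Ctrl 1 and Ctrl 2 were high and the 3 libraries of side B low, whatever the condition. Its log2 fold change of -0.08 (95% interval -0.71 to 0.55) turned to 0.15 (-0.01 to 0.31) with the side as a term. IFI27, a small mitochondrial and nuclear envelope protein, stood at 598, 375 and 406 CPM in APEX1-OE 1, 2 and 3 and 532, 461 and 316 CPM in Ctrl 1, 2 and 3. IFI35, a leucine zipper protein, stood at 487, 316 and 293 CPM in APEX1-OE 1, 2 and 3 and 402, 375 and 256 CPM in Ctrl 1, 2 and 3. Both again had their highest value in APEX1-OE 1 and their lowest in Ctrl 3. Their log2 fold changes were 0.07 and 0.08 by condition alone and 0.29 and 0.29 with the side. IFI44 and IFI44L, neighbours on chromosome 1 that encode related proteins, went the other way with the term, from 0.43 and 0.44 by condition alone to 0.03 and 0.06 with the side.

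The chemokines CXCL10 and CXCL11 attract T cells through the receptor CXCR3. CXCL11 had 21, 75 and 79 counts in APEX1-OE 1, 2 and 3 and 30, 26 and 45 counts in Ctrl 1, 2 and 3, or 0.797, 1.77 and 2.12 CPM in APEX1-OE 1, 2 and 3 and 1.12, 0.789 and 1.15 CPM in Ctrl 1, 2 and 3. APEX1-OE 2 and 3 were highest and APEX1-OE 1 was close to the lowest Ctrl library. The log2 fold change was 0.63 (95% interval -0.25 to 1.51) by condition alone and 0.36 (-0.25 to 0.98) with the side. CXCL10 had a log2 fold change of 0.33 by condition alone and 0.34 with the side.

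The levels in the individual libraries also followed the library side. Compared as the mean of side B over the mean of side A, 21 of the 34 genes were higher on side B and 13 were lower, where 51.4% of all genes were higher. The ratios on the higher side ran from 1.10 in CXCL10 to 2.65 in DDX60, with IFIH1 at 2.37 and IFI44 at 2.13. On the lower side they ran from 0.557 in ISG15 and 0.601 in IRF7 to 0.926 in STAT2. The genes higher on side B had a lower median level, 10.7 FPKM against 145 FPKM in the genes lower on side B, and a lower median GC content of their exons, 42.1% against 53.8%. Over the 34 genes the Pearson correlation of GC content with the log2 ratio of the sides was -0.86, and over 16734 genes with counts in every library it was -0.77. The points share the same 6 libraries, and genes are not replicates. What gave rise to this relation was not tested.

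**Figure D2:**
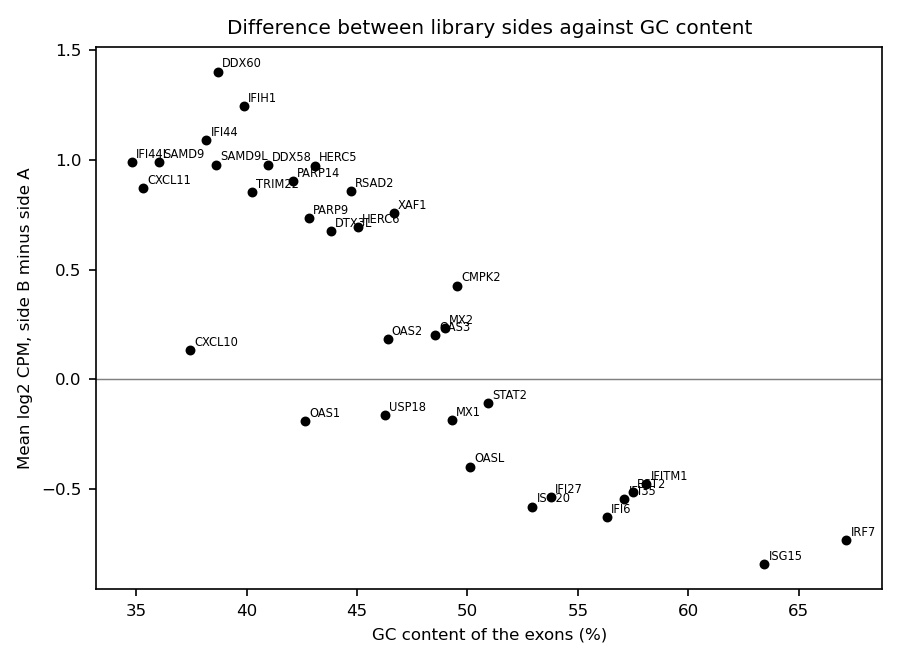
Mean log2 CPM of side B minus side A against the GC content (%) of the exons, with one point for each of the 34 genes tested. Genes near 40% GC such as DDX60 and IFIH1 are higher on side B, and the GC-rich ISG15 and IRF7 are lower there.

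**Figure D3:**
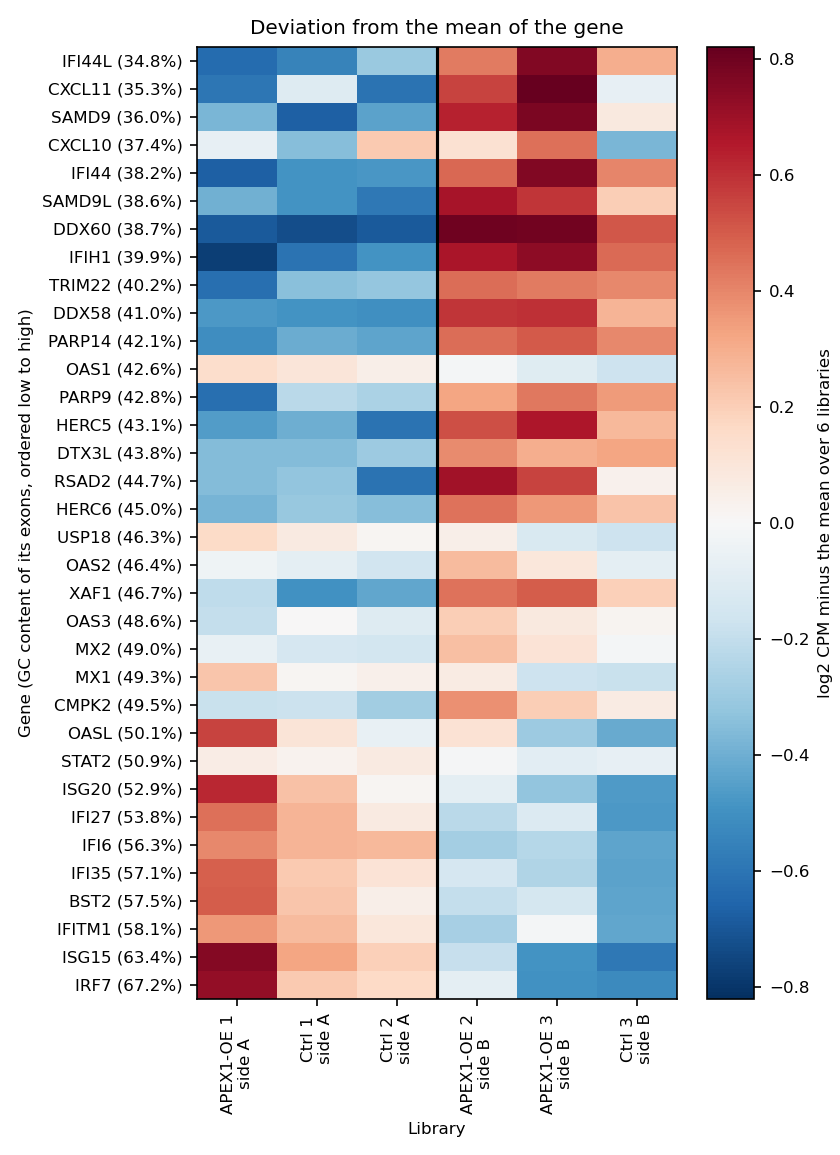
log2 CPM of each gene in each library minus its mean over the 6 libraries (color scale), with the genes ordered by the GC content of their exons and the libraries by side (black line). The genes of low GC content are below their mean on side A and above it on side B, those of high GC content the reverse, and OAS1, CXCL10 and STAT2 are among those that follow this order weakly.

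Within the sides APEX1-OE and Ctrl were compared in the libraries that each side holds. On side A, with 1 APEX1-OE and 2 Ctrl libraries, the median difference of the 34 genes was 0.08 on the log2 scale (-0.01 over all genes). APEX1-OE 1 was above both Ctrl libraries for 18 genes (40.1% of all genes) and below both for 8 (43.1% of all genes). These differences still followed the pattern between the sides. Of the 13 genes lower on side B, 12 were above and 0 below, with a median of 0.27. Of the 21 genes higher on side B, 6 were above and 8 below, with a median of -0.00016. What gave rise to this split was not tested. On side B, with 2 APEX1-OE and 1 Ctrl library, the median difference was 0.25 (0.05 over all genes). Both APEX1-OE libraries were above Ctrl 3 for 31 genes (37.1% of all genes), and in none were both below (21.5% of all genes). In 18 of the 34 genes APEX1-OE lay above Ctrl on both sides, where this held for 17.8% of all genes, and in 0 genes it lay below on both (10.0% of all genes). The largest differences on side A were those of OASL (0.54) and IRF7 (0.54), and the lowest was that of PARP9 (-0.37). On side B they ran from 0.02 in STAT2 to 0.76 in CXCL11. The 31 genes of side B rest on 1 control library, Ctrl 3.

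**Figure D4:**
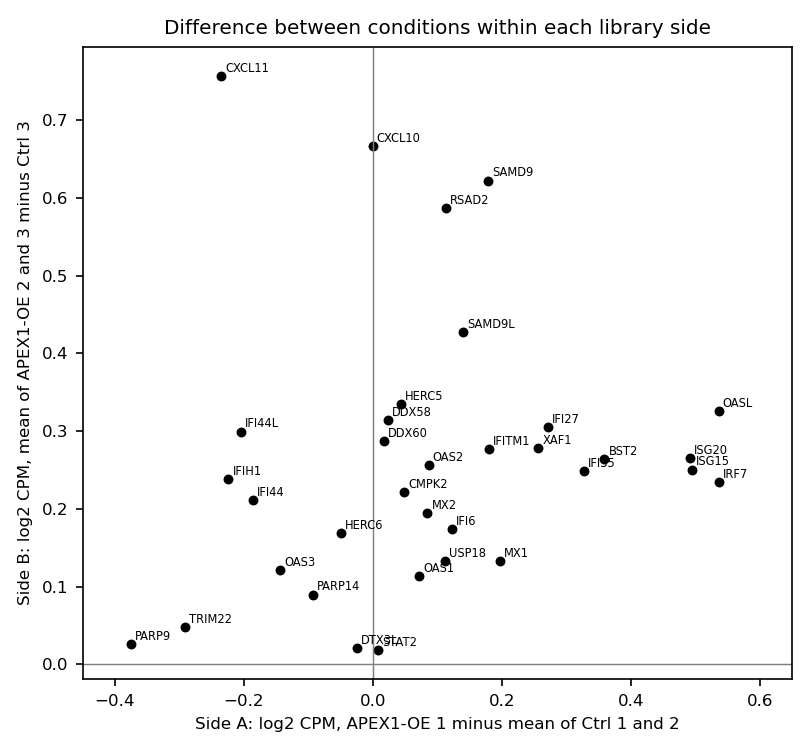
Difference between APEX1-OE and Ctrl in log2 CPM on side B (vertical axis) against that on side A (horizontal axis), with one point for each of the 34 genes tested. All 34 genes lie above 0 on side B and 23 lie right of 0 on side A, with OASL, IRF7, ISG15 and ISG20 farthest to the right and PARP9 and TRIM22 farthest to the left.

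With the library side as a term in edgeR's quasi-likelihood test, the standard errors became smaller and again no interferon-stimulated gene passed the adjusted threshold, which 0.0236% of all genes passed. The smallest adjusted p was 0.316, shared by OASL and ISG15. At an unadjusted p under 0.05 there were 12 of the 34 genes, all higher in APEX1-OE, where 8.61% of all genes were higher and 3.02% lower at that level. They were OASL, IRF7, ISG15, the effectors BST2, IFITM1, ISG20, RSAD2, SAMD9, SAMD9L and XAF1, and IFI27 and IFI35. The median log2 fold change was 0.17 against 0.008 over all genes, and 29 of the 34 were above 0 against 51.6% of all genes. Those higher on side B went from a median of 0.43 by condition alone to 0.14, and those lower on side B from 0.08 to 0.29. When an offset for GC content and exon length was added to the side, 21 of the 34 genes were higher at an unadjusted p under 0.05, where 7.60% of all genes were, and none lower (4.71% of all genes). None passed the adjusted threshold, which 0.118% of all genes passed. The lowest adjusted p was then 0.0538, that of SAMD9 (log2 fold change 0.43), again above the threshold in the edgeR quasi-likelihood test with Benjamini-Hochberg adjustment. IFITM1, 1 of the 12 genes named above, was not among the 21, and its log2 fold change went from 0.23 to 0.14. With the offset added to the side, the median of the genes higher on side B went from 0.14 to 0.17. That of the genes lower on side B went from 0.29 to 0.20. Under the offset alone, without the side, 6 genes had an unadjusted p under 0.05 (3.01% of all genes), namely DDX58, HERC5, RSAD2, SAMD9, SAMD9L and XAF1, and the median was 0.15.

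**Figure D5:**
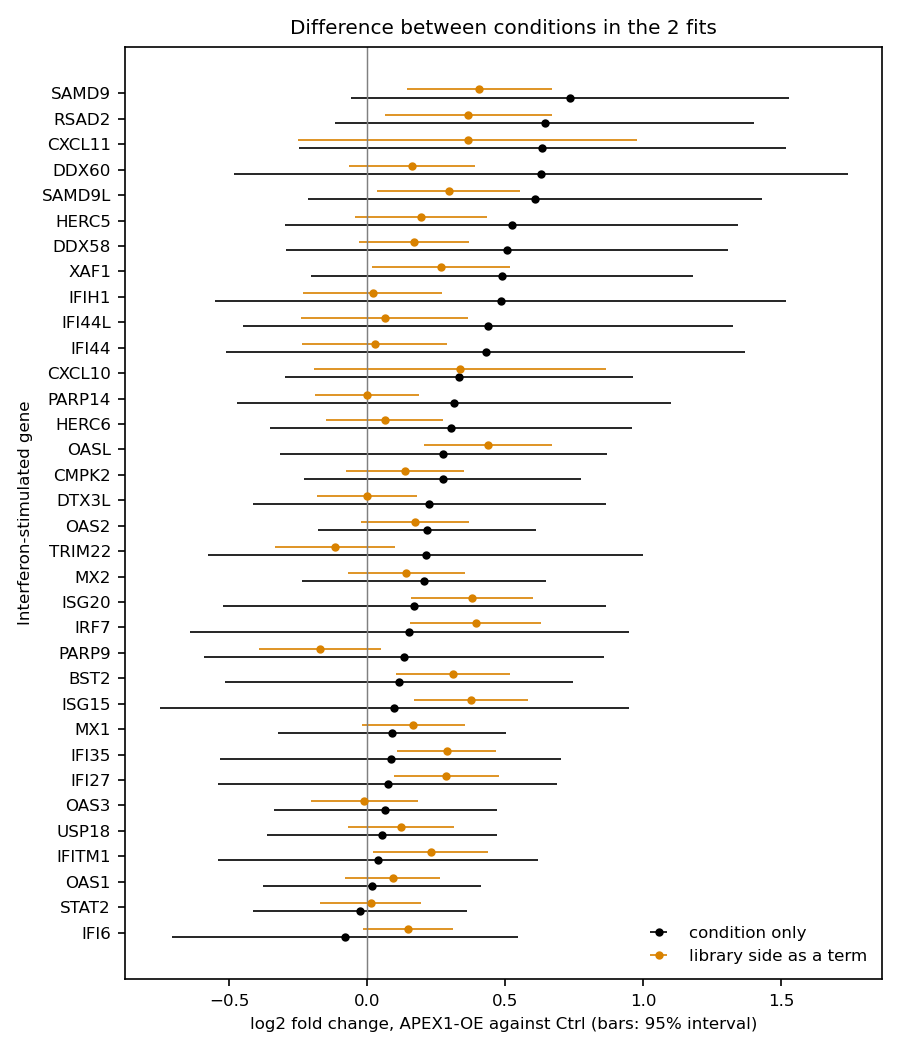
log2 fold change of APEX1-OE against Ctrl for the 34 genes tested, by condition alone (black) and with the library side as a term (orange), with 95% intervals. All black intervals cross 0, while the orange ones are narrower and 12 of them lie above 0.

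The other genes of the pathway were taken from a list of 36 ligands, receptors, kinases, sensors and inhibitors, of which 34 were in the count table and all 34 were tested. By condition alone 0 of them passed the adjusted threshold, which 0.00589% of all genes passed. Their median log2 fold change by condition alone was 0.05 against 0.03 over all genes, and 24 of the 34 were above 0 against 57.5% of all genes. With the library side as a term the median was 0.04 against 0.008 over all genes. Then 18 of the 34 were above 0 and 16 below, where 51.6% of all genes were above 0. IFNL3, a type III interferon that signals through the IFNLR1 and IL10RB receptor, was the only one with an unadjusted p under 0.05, which 0.695% of all genes had. It stood at 9.80, 6.64 and 6.54 CPM in APEX1-OE 1, 2 and 3 and 4.76, 4.71 and 3.46 CPM in Ctrl 1, 2 and 3, so that the groups did not overlap, with a log2 fold change of 0.83 (standard error 0.269). With the library side as a term its log2 fold change was 0.99 and its adjusted p 0.0492 in the edgeR quasi-likelihood test with Benjamini-Hochberg adjustment. The type I interferon IFNB1 and the type III interferon IFNL2 did not overlap between the groups in CPM either, with log2 fold changes of 0.46 and 0.62 by condition alone and 0.55 and 0.70 with the side. Thus 3 of the 34 pathway genes had all APEX1-OE libraries above all Ctrl libraries, where 1.38% of all genes did. IFNL2 and IFNL3 are nearly identical in sequence, so that their counts of uniquely mapped reads are uncertain. The kinases JAK1 and TYK2 had log2 fold changes of 0.28 and -0.03 by condition alone and -0.07 and 0.16 with the side. Among the inhibitors, SOCS1 and SOCS3, which block the JAK kinases, had log2 fold changes of 0.26 and 0.08 by condition alone and 0.51 and 0.25 with the side.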

How the data were processed

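RNA-seq of A549 cells was analysed in 3 APEX1-OE and 3 Ctrl libraries, grouped by their labels. The authors aligned reads to GRCh38 with TopHat2 and deposited raw counts of uniquely mapped reads per gene, and the deposited FPKM were made by the authors from the same reads and rounded to 2 decimals. Which tool and annotation were used for counting, and whether by strand, was not given in the sources used here. The 35 genes and the pathway list were chosen with earlier results of these data known.

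After filterByExpr (minimum count 10, minimum total 15) and TMM normalization, counts were tested with edgeR 4.0.16 (quasi-likelihood F-test, robust, condition as the only term, Benjamini-Hochberg threshold 0.05) in R 4.3.3, after the script was tested on simulated counts. The simulated counts held no difference between library sides. Alternatives used DESeq2 1.42.0, limma 3.58.1 on log2(FPKM + 1) and log2(FPKM + 0.1), other filters and normalization, each library left out, the replicate number as a block and the library side as a term. The offset from splines (5 degrees of freedom) on GC content and exon length (GENCODE release 44) was added after seeing the data. Summaries were made in Python 3.11.15. All 35 genes are named, and values in every library are given where the groups did not overlap, where an unadjusted p was under 0.05 by condition alone or with the side, or where a gene was among the 5 highest by mean FPKM or the 5 largest differences. Pathway genes with an unadjusted p under 0.05 by condition alone were named, and the other pathway genes named were chosen after their values were seen. Total counts lay between 28131955 and 41009197.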

Additional observations from a re-analysis of the deposited data

How the results depend on the processing

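None of the 34 interferon-stimulated genes passed the adjusted threshold in any of the 16 alternatives with a test, and the median log2 fold change lay between 0.15 and 0.39. Without APEX1-OE 1 the median was 0.39, with 22 genes higher, and without Ctrl 3 it was 0.30, with 23 higher. Over all libraries left out in turn the median lay between 0.19 and 0.39 and the number higher between 22 and 34. APEX1 lay between 2.36 and 2.46, and its adjusted p in edgeR's quasi-likelihood test rose above the threshold without APEX1-OE 2 (0.118), APEX1-OE 3 (0.0674), Ctrl 1 (0.210) and Ctrl 2 (0.207). Leaving out a library turned the sign of 14 genes, whose log2 fold changes ranged from -0.37 to 0.33 in ISG15, -0.27 to 0.39 in IRF7, -0.34 to 0.0391 in IFI6, -0.19 to 0.22 in IFI35, -0.17 to 0.24 in IFI27, -0.17 to 0.35 in ISG20, -0.16 to 0.18 in IFITM1, -0.15 to 0.26 in BST2, -0.0770 to 0.0106 in STAT2, -0.0665 to 0.0678 in OAS1, -0.0557 to 0.38 in PARP9, -0.0255 to 0.13 in USP18, -0.0239 to 0.15 in OAS3 and -0.0202 to 0.19 in MX1. With the library side as a term the sign turned in OAS3 (-0.0105), STAT2 (0.0130), PARP9 (-0.17), PARP14 (-0.00043), DTX3L (-0.0013), TRIM22 (-0.12) and IFI6 (0.15). With the offset for GC content and length it turned in OAS1 (-0.10), OAS3 (-0.00052), PARP9 (-0.0420), TRIM22 (-0.0355) and IFI6 (0.0101), and with both in STAT2 (0.0125), PARP9 (-0.0837), TRIM22 (-0.0481) and IFI6 (0.0864). Of the pathway genes, 1 passed the adjusted threshold with the side and 2 with the side and the offset, IFNL1 and IFNL3, against 0 by condition alone. At an unadjusted p under 0.05 the list held 11 genes without APEX1-OE 1 (7.61% of all genes), 5 without Ctrl 3 (3.47%), 5 without the low-count filter (1.95%) and 7 when the replicate number was a block (3.31%), against 0 by condition alone in all 6 libraries. Deviations of same-numbered libraries correlated at 0.61, -0.52 and 0.70, and not every library correlated best with its own number. Between the groups these correlations were positive within a library side and negative across the sides. They therefore cannot show whether same-numbered libraries were paired. With the replicate number as a block, 0 genes of the list passed the adjusted threshold, with a median of 0.22, and 2 genes in all passed it against 1 without the block. The cause of these shifts was not tested.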
